A study of Mus musculus with 8 samples.

Results

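Lum, Dcn, Ogn, Bgn, Fmod, Mfap4, Fbln1, Itih5 and Sparc are 9 genes for non-collagen proteins of the extracellular matrix, and they are described here across the cells and the bulk tissue of the mouse median eminence (ME). They were taken as a named list from 27998 genes in the single-cell table and 55450 genes in the bulk table, and all 9 passed the filter on low bulk counts. Lum and Mfap4 were already known to be lower in the mutant libraries when the list was made, so the bulk differences of the 9 genes are given as a description with no test. In the single cells 7 of the 9 had their highest level in cells like the fibroblasts of the leptomeninges and vessels. The same held for 6.84% of the 14332 genes with at least 10 counts. The list was named for leptomeningeal matrix, so nothing is read from the comparison of these shares. Fbln1 was highest in cells like those of the arachnoid barrier, and Fmod went against the name with most of its transcripts in tanycyte-like cells.

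The ME is the floor of the third ventricle, where hypothalamic axons release hormones toward the pituitary. A single-cell library was made from the pooled ME of 10 female wild-type mice aged 2 months, labelled C57BL/6 and named C57BL/6N in the study's methods, by papain digestion and droplet capture with 3′ counting of unique molecular identifiers (UMIs). Bulk RNA-seq covered 3 control libraries (genotype WT) and 4 Rax::BrafV600E mutant libraries, all labelled C57BL/6 and 2 months old. Mutants carried Rax-CreERT2, a tamoxifen-inducible Cre recombinase at the locus of the tanycyte gene Rax, together with a Braf allele that Cre turns into the oncogenic BrafV600E, and the study's methods describe tissue of 3 control and 4 mutant mice taken 2 months after tamoxifen. With induction in adult mice the labelled age would be too low for that interval, so the age at collection is uncertain, and the labels do not say whether controls received tamoxifen. Rax is expressed in tanycytes, which are not the cells in which most of these 9 genes were found. The study reports tumours and an enlarged ME in such mutants by that time, and describes the mutant bulk samples as tumour tissue. The comparison of mutant with control therefore asks how tumour-bearing ME tissue, with its meninges and vessels, differed from control ME.

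Bulk libraries held 4928456 to 13816596 counts, and 17874 to 40852 genes had at least 1 count. Control 2, control 3 and mutant 1 had the fewest detected genes, from 17874 to 25910, against 34942 to 40852 in the other 4. The labels give no sex for the bulk animals. The Y-linked Ddx3y lay between 69.7 and 118 CPM (counts scaled to library size) in the 3 control libraries and in mutants 1 and 2, and at 0.334 and 0.536 CPM in mutants 3 and 4. Xist stood at 134 CPM in each of these 2 libraries and at 0 to 1.499 CPM in the other 5. Summed pituitary markers were uneven in both groups. The summed markers of other pituitary cells reached 15251 CPM in control 1, 16400 CPM in mutant 1 and 20158 CPM in mutant 3, against 706 to 2477 CPM in the other 4 libraries. That sum mixes genes that differed in opposite directions. The log2 fold changes of mutant over control were -5.02 for Prl, -3.15 for Lhb, -2.71 for Fshb and 1.79 for Pomc. Pomc was also at 694 CPM in neuron-like single cells. Rax itself ranged from 26.8 to 143 CPM in controls and from 33.2 to 175 CPM in mutants, and Braf from 13.0 to 33.8 and from 13.9 to 28.4 CPM, so neither count separated the groups. Counts per gene do not show the Braf mutation and were no check of the labels.

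Decorin (Dcn), biglycan (Bgn), lumican (Lum), fibromodulin (Fmod) and osteoglycin (Ogn) are small leucine-rich proteoglycans, secreted proteins that bind collagen fibrils and set their spacing and thickness. Mfap4 is a glycoprotein of elastic microfibrils, Fbln1 encodes fibulin-1 of basement membranes and elastic fibres, Itih5 is a heavy chain that can be attached to hyaluronan, and Sparc encodes a collagen-binding protein that many cell types secrete. In the brain such proteins come mostly from the fibroblasts of the pia, the arachnoid and the sheaths of vessels, which are called vascular and leptomeningeal cells (VLMCs). Arachnoid barrier cells form a separate, epithelium-like layer that is known for transporters such as Slc47a1.

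Clustering of the 990 cells, with the 9 genes and 9 lists of other matrix genes left out of it, gave 11 clusters. Of the 180 cells called VLMC-like, 11 of 12 VLMC markers stood at least 3-fold above the level in all other cells, among them Col1a1 at 1724 CPM and Col3a1 at 1126 CPM. The same cluster also met that limit for 10 of 10 endothelial and 7 of 8 mural markers, so it was divided further as described later. The limit takes any level above 0. Counted markers thus include the mural Myh11, with 1 UMI in all cells, and the VLMC marker Slc13a4, with 2. A cluster of 23 cells had 5 of 6 arachnoid markers, with Slc47a1 at 1083 CPM against 20.9 CPM in VLMC-like cells, and 7 of 12 VLMC markers. It is called arachnoid-like. Tshb, the thyrotropin subunit gene of the pars tuberalis, was listed at 0 UMIs there, which, with 3 UMIs as the limit, allows a level of up to 12.6 CPM. All single-cell values come from 1 library, so they have counting errors only and no replicate error.

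Lumican mRNA was the sharpest of the proteoglycan markers. The Lum gene is protein-coding and lies on the plus strand of chromosome 10 from base 97565128 to 97572703 (GRCm38). VLMC-like cells had 2168 CPM of Lum (95% Poisson interval 2087 to 2251), or 93.1% of its 2891 UMIs, and 157 of the 180 cells had at least 1 UMI. Arachnoid-like cells had 37.8 CPM from 9 UMIs, which puts the VLMC-like level 57.4 times higher, with a counting interval of 30.2 to 126. The macrophage/microglia-like cluster came next with 98.8 CPM, but 45 of its 67 Lum UMIs were in 1 cell. Erythrocyte-like cells, which should not make lumican, had 9.99 CPM and a UMI in 8.26% of cells at a median of 7708 UMIs a cell. Free RNA in the droplets can give such a level, which was the lowest of all clusters. NK/T-like and ependymal-like cells had 27.9 and 28.9 CPM. Both values lie within the counting interval of arachnoid-like cells, 17.3 to 71.7 CPM, so Lum there was not set apart from free RNA.

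Mfap4 had almost the same distribution. This protein-coding gene lies on the plus strand of chromosome 11 from base 61485431 to 61488900 and shares 89 exonic bases with Mapk7 on the other strand. The VLMC-like level was 3112 CPM (3015 to 3212), with a UMI in 172 of 180 cells. In arachnoid-like cells Mfap4 stood at 29.4 CPM from 7 UMIs, close to the 21.9 CPM of erythrocyte-like cells, and the VLMC-like level was 106 times higher (51.4 to 264). Mfap4 was thus at the level of free RNA in arachnoid-like cells. In the macrophage/microglia-like cluster, 35 of the 53 Mfap4 UMIs came from a single cell.

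Dcn and Itih5 were shared between both meningeal clusters at unequal levels. Dcn lies on chromosome 10 from base 97479609 to 97518143, on the same strand as Lum, and ends 47.0 kb before it. Its level was 15087 CPM (from 18728 UMIs) in VLMC-like cells and 2111 CPM in arachnoid-like cells. Up to 168 Dcn UMIs were counted in a single arachnoid-like cell, and 12 of the 23 cells had at least 5. Itih5, on chromosome 2 from base 10153571 to 10256529, had 3004 CPM (2908 to 3102 by counting) in VLMC-like cells and 222 CPM in arachnoid-like cells. The ratio of the first cluster to the second was 7.15 for Dcn (6.54 to 7.83) and 13.5 for Itih5 (10.3 to 18.1). Erythrocyte-like cells had 63.3 CPM of Dcn and 16.2 CPM of Itih5, well under both.

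Ogn, Bgn and Fbln1 did not set VLMC-like cells apart from arachnoid-like cells to the same degree. Ogn, on chromosome 13 from base 49608046 to 49624501, had 152 CPM in VLMC-like and 130.1 CPM in arachnoid-like cells, and the interval of the ratio, 0.798 to 1.77, included equality. Bgn, on the X chromosome from base 73483602 to 73495933, had 999.7 and 382 CPM, a ratio of 2.62 (2.12 to 3.28). Fbln1, on chromosome 15 from base 85205949 to 85286535, was higher in arachnoid-like cells, with 537 CPM from 128 UMIs against 338 CPM from 420 UMIs. Its ratio of VLMC-like to arachnoid-like was 0.630 (0.516 to 0.774). Fibulin-1 mRNA was found in 21 of 23 arachnoid-like cells and in 135 of 180 VLMC-like cells.

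Sparc and Fmod departed from the rest. Sparc, on the minus strand of chromosome 11 from base 55394500 to 55423183, had 1511 CPM in VLMC-like and 1125 CPM in arachnoid-like cells, but also 973 CPM in macrophage/microglia-like, 712 CPM in tanycyte-like and 476 CPM in ependymal-like cells. Only 39.6% of its 4734 UMIs were in VLMC-like cells, against 92.5% or more for Lum, Dcn, Mfap4 and Itih5. Erythrocyte-like cells had 37.1 CPM of Sparc, far under the tanycyte-like level. Fmod, on chromosome 1 from base 134037254 to 134048277, gave 54 UMIs in all. Of these 37 were in tanycyte-like cells (20.4 CPM, 14.4 to 28.1), 7 in VLMC-like cells (5.64 CPM, 2.27 to 11.6) and 4 in arachnoid-like cells (16.8 CPM, 4.57 to 43.0). Fmod was hence not a VLMC-like transcript in this library, and at such counts its order among the 3 clusters was not fixed.

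**Figure D1:**
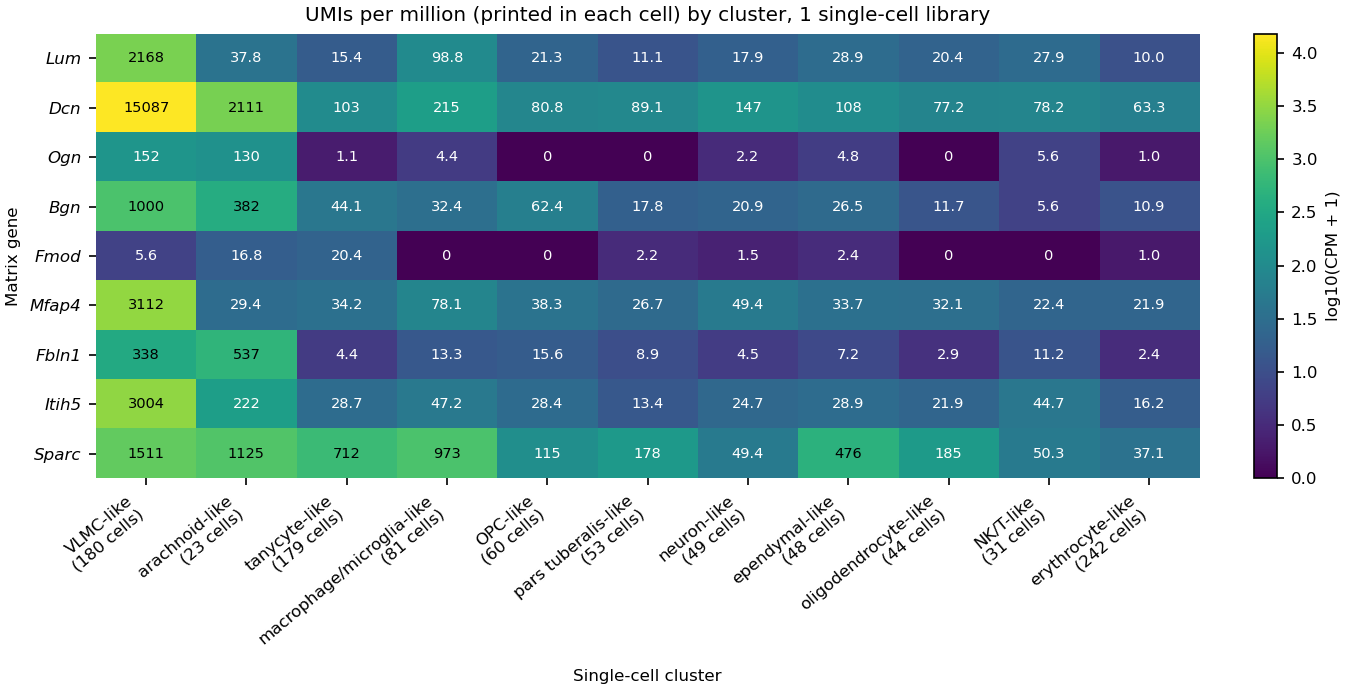
Level of the 9 genes (rows) in the 11 single-cell clusters (columns, with the number of cells), as CPM of the cluster's summed UMIs, coloured by log10(CPM + 1) with the CPM printed in each field. Lum and Mfap4 reach 2168 and 3112 CPM in the VLMC-like column and no more than 98.8 CPM in any other, whereas Sparc is spread over the VLMC-like, arachnoid-like, macrophage/microglia-like, tanycyte-like and ependymal-like columns.

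The ratio between genes also differed from cluster to cluster. Free RNA from 1 source would keep it the same. For each 100 UMIs of Dcn there were 14.4 of Lum and 20.6 of Mfap4 in VLMC-like cells, and 15.8 and 34.6 in erythrocyte-like cells. Arachnoid-like cells had 1.79 of Lum and 1.39 of Mfap4, but 25.4 of Fbln1, against 2.24 of Fbln1 in VLMC-like cells. The decorin RNA of arachnoid-like cells thus came with little lumican RNA.

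Lum, Dcn, Mfap4 and Itih5 were found together within single cells. All 4 had a UMI in 154 of the 180 VLMC-like cells. The median VLMC-like cell held 12 UMIs of Lum (quartiles 4 and 20.25), 101.5 of Dcn, 18 of Mfap4 and 19 of Itih5. Lum was missing in 18 cells that had Mfap4, and Mfap4 in 3 cells that had Lum. Ogn had a UMI in 68 of the cells, 56 of which also had Lum. When every cell was thinned to 1000 UMIs, 67.8% of VLMC-like cells still had a Lum UMI and 84.4% an Mfap4 UMI, against 1.24% and 4.13% of erythrocyte-like cells.

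Within the VLMC-like cluster, Lum and Ogn were high in different cells. Dividing the 180 cells again gave 4 sub-clusters of 65, 54, 33 and 28 cells. Lum was highest in the 33 cells of sub-cluster 3, at 3807 CPM (3556 to 4072), where Ogn was at 4.47 CPM from 1 UMI. Ogn was highest in the 54 cells of sub-cluster 2, at 357 CPM (300 to 423), where Lum was lowest at 1387 CPM. Sub-cluster 3 was led by Ccl7, Spp1 and C3, and sub-cluster 2 by Sfrp4 and Bmper, with Ogn itself among the leading genes. In sub-cluster 2, 4 of the 6 arachnoid markers also stood at least 3-fold above the other sub-clusters. Their list summed to 310 CPM there and to 40.2 to 101 CPM in the others. The part of arachnoid-like content in the Lum and Ogn difference was not tested. Between sub-clusters 3 and 2, Itih5 differed in the same direction as Lum, with 3637 and 1973 CPM, and so did Bgn with 1452 and 651 CPM. Mfap4 ran the other way, at 2440 CPM in sub-cluster 3 and 3667 CPM in sub-cluster 2. Sub-cluster 4 had little Lum, 1474 CPM, but 3532 CPM of Itih5 and 1255 CPM of Bgn, so neither gene followed Lum throughout. Dcn moved little, between 13406 and 16298 CPM over the 4 sub-clusters. Cells of the pool came from several mice, and no value shows how the animals shared the sub-clusters.

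**Figure D2:**
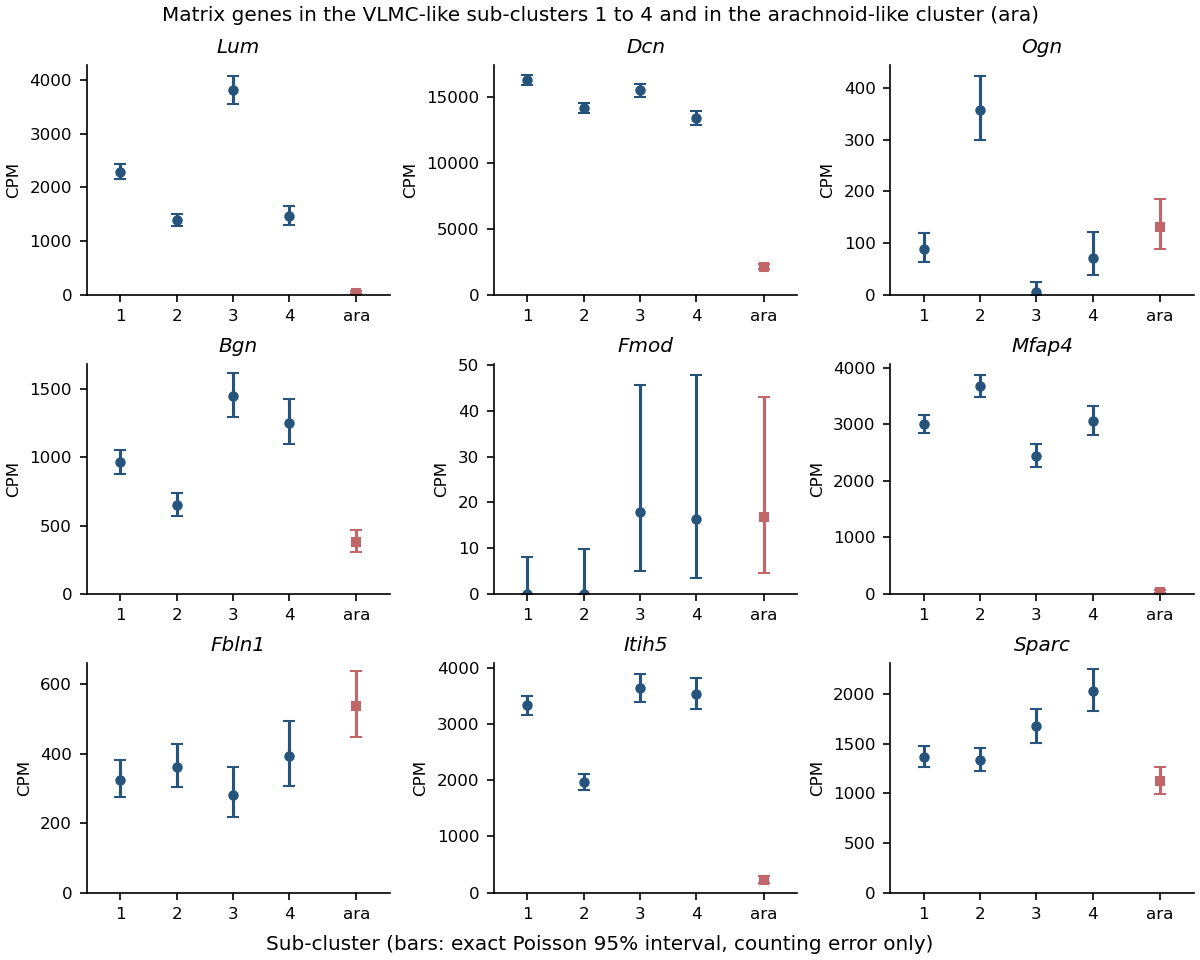
CPM of each of the 9 genes in the 4 sub-clusters of the VLMC-like cells (circles) and in the arachnoid-like cluster (square, ara), with exact Poisson 95% intervals that cover counting error only. Lum peaks in sub-cluster 3 (3807 CPM) and Ogn in sub-cluster 2 (357 CPM).

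Sub-cluster 4 had the highest level of endothelial markers, with a sum of 2052 CPM against 35.7 to 124 CPM in the others. Its summed mural level was also highest, at 639 CPM against 134 to 196 CPM. The endothelial markers were packed into few cells, which were picked from all sub-clusters and are not the 28 cells of sub-cluster 4. Of the 180 cells, 168 had 0 or 1 of the 10 endothelial markers, 5 had 2, and 7 had 5 or more, and those 7 cells held 390 endothelial UMIs. In the 7 cells Dcn stood at 1951 CPM, Lum at 488 CPM and Mfap4 at 186 CPM, against 15536, 2240 and 3206 CPM in the 168 cells. Sparc was nearly as high in the 7 cells, 1394 CPM, as in the 168 cells, 1510 CPM. Fmod stood at 69.7 CPM in the 7 cells and 3.46 CPM in the 168. It had only 7 UMIs in 3 of the 180 cells, too few to read a difference from. The split by endothelial markers was chosen after the values were seen.

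Other genes followed Lum and Mfap4 over the 11 clusters. Among 10939 genes outside all lists with at least 50 UMIs, the highest Pearson correlations of log2(CPM + 1) with Lum belonged to Crispld2 (0.963), Ccl19 (0.958), Ms4a4d (0.9503), Inmt (0.9496) and Enpp1 (0.945). With Mfap4 they belonged to Crispld2 (0.988), Ccl19 (0.988), Lamc3 (0.971), Ms4a4d (0.967) and Ebf2 (0.963). Ccl19 is a chemokine, Inmt an indole methyltransferase, Enpp1 a nucleotide pyrophosphatase, Lamc3 a laminin chain and Ebf2 a transcription factor. Lum and Mfap4 themselves correlated at 0.953, Lum and Itih5 at 0.925, and Lum and Fmod at 0.155. The points are clusters of 1 library that share its depth and free RNA, so the values are descriptions.

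In the bulk tissue, 4 of the 9 genes were lower in every mutant library than in every control library, and 1 was higher in every mutant library. Of all 20466 genes tested, 3.18% were lower and 5.83% higher in that sense, and since Lum and Mfap4 were picked on this contrast nothing is read from the comparison of shares. A fitted log2 fold change of -1 or lower was found for the same 4 genes and for 6.82% of all genes. The median log2 fold change of the 9 genes was -0.66, against 0.13 for all genes tested. In bulk tissue, fewer cells of a type and less RNA per cell cannot be told apart. Values below are CPM scaled by the trimmed mean of M values (TMM), in the order control 1, 2, 3 and mutant 1, 2, 3, 4.

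Mfap4 showed the widest gap. It stood at 40.3, 50.6 and 31.2 CPM in the controls and at 6.29, 6.67, 5.18 and 3.40 CPM in the mutants. The lowest control was thus far above the highest mutant, and the means were 40.7 ± 9.70 (SD, n = 3) and 5.38 ± 1.47 CPM (SD, n = 4). The log2 fold change was -2.91, a 7.51-fold lower level. Mapk7, which overlaps Mfap4 on the other strand, had 0.257 to 26.9 CPM in controls and 20.4 to 49.5 CPM in mutants. The counting was not stated to use strand, so reads of the 89 shared bases cannot be told apart.

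Dcn and Lum, neighbours on chromosome 10, were both lower in mutants. Dcn had 826, 2264 and 2545 CPM in controls and 593, 378, 324 and 242 CPM in mutants. Control 1 was the lowest control and mutant 1 the highest mutant, and the groups did not overlap. The log2 fold change was -2.29, with means of 1878 ± 922 and 384 ± 150.4 CPM. Lum had 83.7, 208 and 197 CPM in controls and 55.0, 27.4, 47.6 and 25.7 CPM in mutants, a log2 fold change of -2.06. Again control 1 and mutant 1 lay nearest to each other. Kera and Epyc, which follow Lum on the chromosome and encode related proteoglycans, were too low to test, at no more than 2.14 CPM for Kera and 1.43 CPM for Epyc in any library.

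Itih5 was lower by less. Its libraries had 140.5, 264 and 299 CPM in controls and 133, 75.7, 111 and 98.3 CPM in mutants. Control 1 exceeded mutant 1 by a narrow margin, so the separation rested on a small gap. The log2 fold change was -1.16, and the means were 234 ± 83.1 and 105 ± 24.1 CPM. Its neighbour Itih2, which encodes another heavy chain, overlapped between groups with 28.8 to 35.5 and 17.4 to 58.1 CPM.

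Sparc was higher in every mutant library. It had 773, 866 and 676 CPM in controls and 1082, 1268, 1184 and 1111 CPM in mutants. The groups were tight, with means of 772 ± 94.97 and 1161 ± 83.0 CPM and a log2 fold change of 0.59. Per kilobase of exon, the mean Dcn level was 322 CPM in controls and 65.8 CPM in mutants, and the mean Sparc level 204 and 307 CPM. Dcn was hence the highest of the 9 genes per length in controls, and Sparc in mutants.

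RefSeq promoters were present for 6 of the 9 genes, and not for Lum, Dcn and Mfap4. The 250 bases before the RefSeq start are shown for Itih5 and Sparc because these genes differed in opposite directions in the bulk libraries. For Sparc this start and its window lie inside the gene span given above, which is from GENCODE and begins farther upstream. Itih5 is at chr2:10153293-10153542 on the plus strand and Sparc at chr11:55420081-55420330 on the minus strand (GRCm38.p6), each written 5′ to 3′ on the gene's strand, with matches to the letters searched in capitals.
Itih5: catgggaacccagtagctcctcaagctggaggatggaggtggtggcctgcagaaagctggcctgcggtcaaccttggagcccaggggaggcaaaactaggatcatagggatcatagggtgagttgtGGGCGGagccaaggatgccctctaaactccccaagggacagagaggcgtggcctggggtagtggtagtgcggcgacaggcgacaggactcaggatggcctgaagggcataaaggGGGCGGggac
Sparc: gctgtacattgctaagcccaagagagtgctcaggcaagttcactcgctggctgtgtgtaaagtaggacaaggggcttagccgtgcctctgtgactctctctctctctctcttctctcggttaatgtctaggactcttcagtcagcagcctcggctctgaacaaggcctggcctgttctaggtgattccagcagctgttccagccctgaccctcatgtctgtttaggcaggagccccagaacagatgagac
Both strands were searched for 5 short motifs, and their shares are over the same window of 27025 genes. The TATA box TATAAA was in 13.0% and the CCAAT box CCAAT in 34.5% of windows. The GC box GGGCGG was in 32.9%, the AP-1 motif TGANTCA in 6.87% and the TEAD motif GGAATG in 12.6%. Itih5 had GGGCGG starting 124 and 10 bases before the start, and no other match, and Sparc had no match. GC made up 61.2% of the Itih5 window and 54.0% of the Sparc window, beside a median of 52.0% over all genes.

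Ogn, Bgn, Fbln1 and Fmod overlapped between the groups. Ogn had 54.0, 46.5 and 49.4 CPM in controls and 35.7, 25.8, 26.2 and 52.7 CPM in mutants. Mutants 1, 2 and 3 were below all controls, and mutant 4 was within their range. Bgn had 104, 180.3 and 61.7 CPM in controls and 102, 57.2, 71.3 and 60.6 CPM in mutants, with a log2 fold change of -0.66. Fbln1 had 68.9, 119 and 57.2 CPM in controls and 33.5, 54.3, 61.0 and 72.7 CPM in mutants, with a value of -0.56. Fmod had 19.3, 55.0 and 18.6 CPM and 23.1, 16.9, 12.7 and 59.7 CPM, with 1 high library in each group and a log2 fold change of -0.14 whose sign changed under 5 of the alternatives tried.

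**Figure D3:**
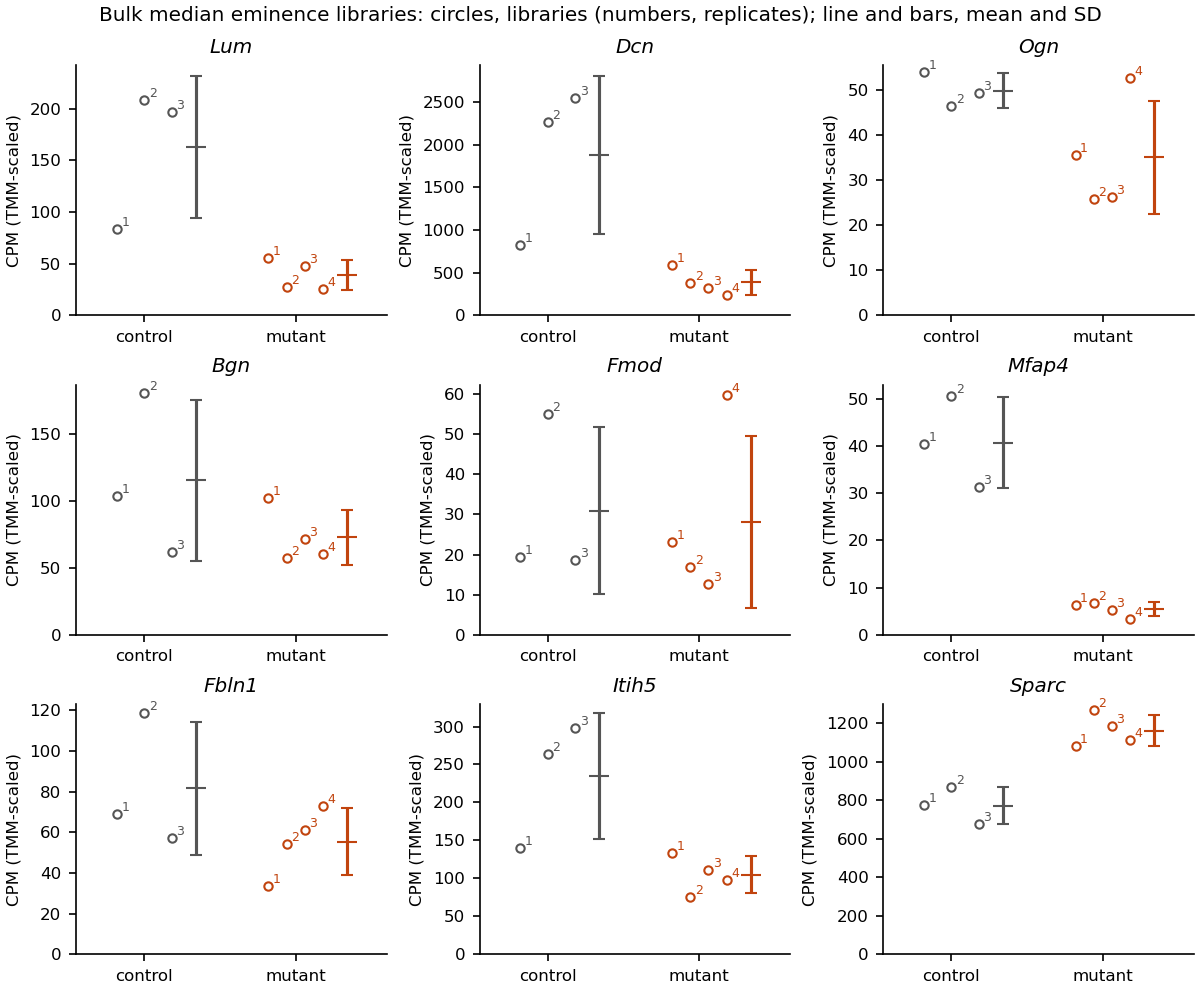
CPM (TMM-scaled) of the 9 genes in the bulk libraries, with each library as a circle numbered by its replicate, and the mean and SD of the 3 control and 4 mutant libraries beside them. Lum, Dcn, Mfap4 and Itih5 have all mutants below all controls, Sparc has all mutants above, and Ogn, Bgn, Fmod and Fbln1 overlap.

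The libraries with the fewest detected genes had the highest values of 3 genes. Controls 2 and 3 had more Lum, Dcn and Itih5 than control 1, and mutant 1 had more of each than the other mutants. Without controls 2 and 3 and mutant 1, which leaves control 1 as the only control against 3 mutants, the log2 fold change was -1.32 for Lum, -1.39 for Dcn and -0.57 for Itih5, and that of Mfap4 was -2.95. These are values against 1 library. With all libraries and the number of detected genes as a covariate the values were -1.36, -1.28, -0.62 and -2.81, close to -2.91 for Mfap4 and smaller than without the covariate for the other 3 genes. Within the 5 libraries that held Ddx3y, the values were -1.98 for Lum, -1.94 for Dcn, -1.16 for Itih5, -2.65 for Mfap4 and 0.61 for Sparc, and each of the 5 genes still had both mutants on the same side of all 3 controls. Ogn and Fbln1 were also lower in both of these mutants than in every control, which makes 6 of the 9 genes lower. With 2 mutants the criterion is easier to meet, and 6.17% of all genes met it, against 3.18% with all libraries. No control library lacked Ddx3y, so mutants 3 and 4 had no control of their kind.

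Among these 9, the genes with the largest ratio of VLMC-like to arachnoid-like level were the ones with the largest bulk differences. The 4 genes with a ratio above 7 (Mfap4, Lum, Itih5 and Dcn) had log2 fold changes of -2.91 to -1.16. The 5 genes with a ratio of 2.62 or less (Bgn, Sparc, Ogn, Fbln1 and Fmod) had values from -0.66 to 0.59. Within these groups the order did not hold, with Dcn at -2.29 for a ratio of 7.15 and Lum at -2.06 for a ratio of 57.4. Lum and Mfap4 were picked for their lower bulk values and have the largest ratios, so the grouping is a description of the list and supports nothing.

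**Figure D4:**
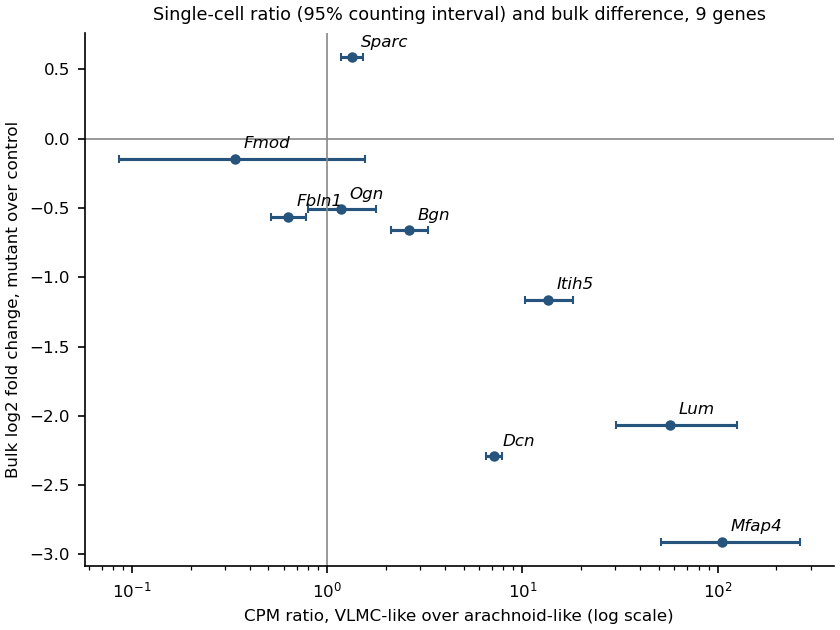
For each of the 9 genes, the ratio of its CPM in VLMC-like over arachnoid-like cells (x axis, log scale, with the 95% counting interval) against its bulk log2 fold change of mutant over control (y axis). Mfap4 and Lum lie at the lower right (ratios of 106 and 57.4), and Sparc is the only gene above 0.

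The 7 genes most like Lum or Mfap4 over the clusters all had negative bulk log2 fold changes, from -3.17 for Ccl19 to -0.60 for Ebf2. Inmt had 148, 147 and 196 CPM in controls and 65.6, 34.9, 27.2 and 8.22 CPM in mutants, and Ccl19 had 1.24 to 13.0 and 0.313 to 1.17 CPM. Both were lower in all mutants than in all controls, and the other 5 overlapped. None passed the edgeR quasi-likelihood test, with Benjamini-Hochberg adjusted p-values from 0.359 for Inmt to 0.906 for Ebf2. Since 0 of all 20466 genes tested passed it, this does not set the 7 genes apart. A wider set, chosen after the data were seen, held 53 tested genes outside the 9 whose VLMC-like level was at least 10 times that of any other cluster. Of these, 45 had a negative log2 fold change, 13 (24.5%) were lower in every mutant library, and the median was -1.01. Of all 20466 genes tested, 8859 were negative, 3.18% were lower and 5.83% higher in every mutant library, and the median was 0.13. The corresponding 42 genes of arachnoid-like cells had a median of 0.24, 1 gene (2.38%) lower in every mutant library and 2 higher. That median was -0.09 with detected genes as a covariate and -0.04 within the libraries that held Ddx3y, so it kept no direction. The wider set held 2 genes of the endothelial list, 1 of the mural list and 0 of the VLMC list, which name 10, 8 and 12 genes. It therefore does not stand for the VLMC markers, whose median was 0.19. Its other genes were not sorted by cell type, so vascular genes outside those lists can be among them. The median of the wider set was -0.985 without the libraries of few detected genes (1 control left). It was -1.17 within the libraries that held Ddx3y and -0.94 with detected genes as a covariate. The medians of all genes were 0.08, 0.007 and 0.01 in these settings.

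No gene of the whole table passed edgeR's adjusted threshold of 0.05, while 796 genes (3.89%) were lower and 865 (4.23%) higher at an unadjusted p under 0.05. DESeq2 called 360 of 26211 genes (1.37%). The other matrix genes, taken from 9 lists of relatives, partners and enzymes, are read against these numbers. Of 97 listed genes 90 were tested and 0 passed in edgeR, where 8 were lower and 3 higher at an unadjusted p under 0.05. DESeq2 called 5 of them. The median log2 fold change was 0.04, and 9 genes were lower and 3 higher in every mutant library, beside 3.18% and 5.83% of all genes.

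Efemp1, which encodes fibulin-3, had the smallest adjusted p in these lists, 0.131 by edgeR. It stood at 321 to 389 CPM in controls and 86.7 to 155 CPM in mutants, and in single cells at 1698 CPM in VLMC-like and 789 CPM in arachnoid-like cells. Chad, which encodes a cartilage relative of the proteoglycans, had 8.21 to 36.3 CPM in controls and 1.07 to 4.17 CPM in mutants, with a log2 fold change of -3.34, and was listed at 0 UMIs in the single cells. Smoc2 and Serping1, a Sparc relative and the C1 inhibitor, had log2 fold changes of -1.82 and -1.63. Smoc2 was lower in every mutant library and was highest in arachnoid-like cells, at 512 CPM against 76.5 CPM in VLMC-like cells. Serping1 was highest in VLMC-like cells, at 647 CPM against 277 CPM in arachnoid-like cells. Chst2, a sulfotransferase for keratan sulfate chains, was higher in all mutants, with 18.1 to 55.1 CPM in controls and 92.7 to 158 CPM in mutants. DESeq2 called these 5 genes, with Chst2 the only one higher.

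By the mean over both groups, the most abundant genes of 5 of the lists overlapped between the groups, with log2 fold changes of 0.25 for Prelp, 0.48 for Sparcl1, -0.08 for the protease inhibitor gene Timp3, -0.04 for Loxl1 and -0.01 for Chpf. Timp3 stood at 3213 CPM in VLMC-like cells, beside Mfap4 and Itih5 in level. The microfibril, chondroitin and dermatan sulfate, inter-alpha-inhibitor and TGF-beta lists held no gene called by either tool. Microfibril and elastic fibre genes, partners of Mfap4, had a median of -0.04 over 13 tested genes, and Mfap5 was lowest there at -1.28. Enzymes that build chondroitin and dermatan sulfate chains, which decorin and biglycan carry, had a median of 0.28 over 19 genes, with Xylt1 at 1.32 and Chst14 at -1.44. The inter-alpha-inhibitor list of Itih5 had a median of 0.13 over 4 genes. Genes of TGF-beta ligands and receptors, a pathway that decorin and biglycan can bind, had a median of -0.40 over 8 genes. Adamts1, a protease that is highest in VLMC-like cells at 871 CPM, was higher in every mutant library with a log2 fold change of 1.40 and an edgeR adjusted p of 0.445.

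Markers of meningeal and vascular cells did not move as 1 block. The 11 tested VLMC markers had a median log2 fold change of 0.19, with 5 negative and the rest positive. The negative ones were Col1a1 (-0.79), Col1a2 (-0.62), Col3a1 (-0.75) and Tbx18 (-0.30), each highest in VLMC-like cells, and Foxc1 (-0.07). Among the positive ones, Cdh11 (0.30) was highest in VLMC-like cells, at 149.8 CPM. Islr (0.45) had 659 CPM there and 932 CPM in arachnoid-like cells. Slc6a13 (0.59) had 16 UMIs in the single cells, and Slc22a6 and Slc13a4 had 2 each. Pdgfra (0.74) was as high in OPC-like cells, 304.9 CPM, as in VLMC-like cells, 305.3 CPM. Col1a1 alone was lower in every mutant library, with 89.8 to 137 CPM in controls and 41.6 to 77.5 CPM in mutants. Summed VLMC markers overlapped, with 411 to 733 CPM in controls and 438 to 660.2 CPM in mutants. The 6 arachnoid markers had a median of -0.23 and the 7 mural markers of 0.18. Of 10 endothelial markers, 9 had negative values. In every mutant library 5 were lower (Plvap, Emcn, Esam, Kdr and Egfl7), beside 3.18% of all genes. The endothelial sum was 368 to 558 CPM in controls and 109.5 to 199.6 CPM in mutants. The endothelial median of -1.11 thus moved with Lum, Dcn, Mfap4 and Itih5, and the part of endothelial cells in the values of these 4 genes was not tested. Other cell types moved too. The median was -1.36 for oligodendrocyte markers (6 of 6 negative), -1.48 for pars tuberalis markers (4 of 5), -0.89 for macrophage and microglia markers (7 of 7) and 1.88 for OPC markers (0 of 6). Summed oligodendrocyte markers were 2829 to 11340 CPM in controls, lowest in control 1, and 1928 to 3428 CPM in mutants, highest in mutant 1, and their part in the result was not tested. In the single cells, the 7 cells with 5 or more endothelial markers had lower levels of all 4 genes than the other VLMC-like cells. These few cells of 1 wild-type library were split off after the values were seen, so nothing is read from them about the bulk libraries.

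**Figure D5:**
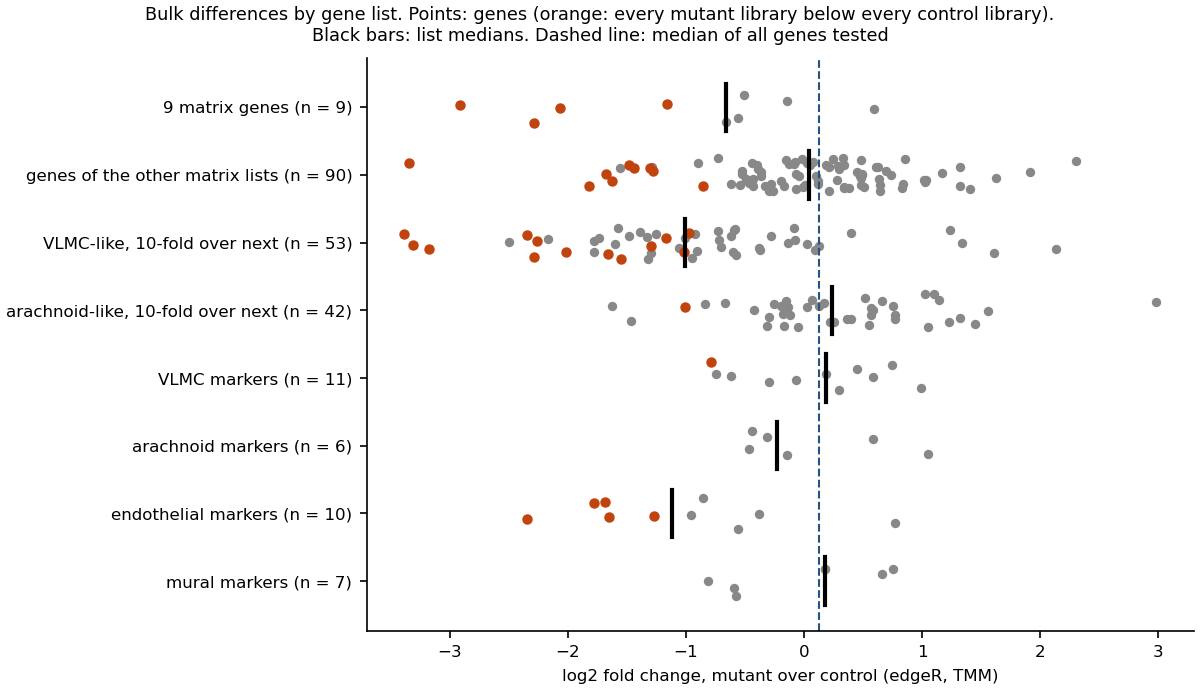
Bulk log2 fold change of mutant over control (x axis) for the genes of 8 lists (rows, n = genes tested), with genes lower in every mutant library in orange, list medians as black bars and the median of all genes tested as a dashed line. The 9 matrix genes (median -0.66), the VLMC-like genes (median -1.01) and the endothelial markers (median -1.11) lie to the left of the line, and the arachnoid-like genes (median 0.24) do not.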

How the data were processed

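Single-cell counts were deposited as a matrix of UMIs per gene and cell, made by the authors with Cell Ranger on a mouse reference. Bulk values were deposited as raw read counts per Ensembl gene, made by the authors from Smart-seq2 libraries without UMIs or strand. The submitters' processing notes name Cell Ranger 2.0.1, DESeq2, GRCm38 and mm10. The bulk aligner and counter are not given in the sources used here. Positions are from GENCODE M21.

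The matrix holds 990 cells with 3284 to 57119 UMIs each (median 7832), all kept. Cells were clustered in Seurat 5.3.0 (log-normalized to 10000, 20 components, resolution 0.8), with 4777 variable genes after removal of all matrix lists. A cluster took the name of the marker list with most genes among its 10 leading genes, if at least 3 markers stood 3-fold above other cells, a rule set after seeing the data. Names were therefore rebuilt and can differ from the study's, which used Slc47a1 for pars tuberalis cells. Scrublet called 3 doublets (0.303%), 1 of them in the VLMC-like cluster, and they were kept. CPM of summed UMIs carry exact Poisson 95% intervals, which cover counting error only.

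Bulk counts were filtered with filterByExpr, TMM-scaled and fitted with edgeR 4.0.16 (quasi-likelihood, Benjamini-Hochberg, threshold 0.05), with DESeq2 as an alternative. The edgeR fit was checked on simulated counts, with a pass limit only for a fixed spread between libraries. No limit was set at the spread estimated from these libraries, so the check does not show which changes the fit could find here. Each library is taken as 1 mouse, after the study's methods, which the labels do not state. Members and lists were chosen with earlier results of these data known. Genes named are the 9 members, Rax and Braf, neighbours of members in their families, the 3 most abundant genes or any call of a matrix list, marker genes, and the 5 genes most like Lum and Mfap4. Others were named after their values were seen.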

Additional observations from a re-analysis of the deposited data

How the results depend on the processing

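The number of genes that passed an adjusted p of 0.05 depended on the processing. It was 0 in edgeR with TMM, 1 with upper-quartile scaling, 3 with library sizes alone, 240 with no filter on low counts, 13 with at least 10 counts in every library and 1 with detected genes as a covariate. It was 210 without the 3 libraries of fewest detected genes, a fit with 1 control library that is assumed to vary like the mutants. It was 360 in DESeq2, and with single libraries left out it ranged from 0 to 45, with 45 without control 1 and 16 without control 3. The cause was not tested. Library sizes alone moved the median log2 fold change of all genes from 0.13 to 0.25.

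Of the 9 genes, 4 were lower in every mutant library (3.18% of all genes), with 3 under no filter (1.29%) and 5 without mutant 4 (4.45%). The count was 6 within the libraries that held Ddx3y (6.17%) and without the 3 libraries of fewest detected genes (29.2%), where fewer libraries make the criterion easier to meet. Their median log2 fold change lay between -0.93 and -0.55. Lum, Dcn, Mfap4 and Itih5 stayed negative and Sparc positive under every alternative, with Mfap4 between -3.04 and -2.65. Of 144 values for single genes, 137 moved by less than the spread between libraries. The 7 that moved more were Sparc with library sizes alone, and Lum, Dcn and Itih5 under both settings for detected genes. These settings were the covariate and the removal of the 3 libraries. For Fmod the spread was 0.93, so its 5 changes of sign are counted among the smaller moves. In the single cells 7 genes were highest in a VLMC-like cluster under the other clusterings tried and without doublets. The count was 6 by the mean log-normalized value per cell and after thinning to 1000 UMIs. In the main clustering 6.84% of all genes with at least 10 UMIs were highest there.

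Between libraries of the same replicate number, deviations from the group means correlated at -0.45, -0.01 and -0.23. Detected genes differed widely between these libraries, so the correlations cannot show whether the numbers pair them, and the labels do not say. With the replicate number as a block 0 genes were called and the median of the 9 genes was -0.79. Depth limited Fmod, with 54 UMIs in all.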
